A study of Arabidopsis thaliana with 12 samples.

Results

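MAMI, AT1G65500 and AT1G05340 are 3 Arabidopsis thaliana genes whose features on an expression array were compared between roots of the wild type and of the kn09 mutant. They were found by locus among the 692 of 3439 array features that the platform annotation assigns to a single gene, and each gene had 1 such feature. The genotype contrast itself led to these genes: AT1G65500 was among the largest called increases, AT1G05340 among the largest called decreases, and MAMI was a called member of a stress list. They were thus chosen by their measured log2 differences and adjusted p-values between kn09 and WT. Those differences are therefore given below as descriptions, without a p-value. They had been put together as stress-linked small membrane and secreted proteins. The reference table describes only MAMI in such terms (membrane-associated mannitol-induced) and gives the other two a locus name alone, so that this description could not be checked for them and no role is assigned to them here.

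Total RNA from roots was measured in 12 samples, 6 of the wild type (WT) and 6 of kn09, both of the ecotype Wassilevskija. Before sampling, all roots had spent 48 h on MS medium with 100 mM glucose, so no group without glucose enters the comparison. Per the labels, kn09 is hypersensitive to proline and cannot break it down in mitochondria; the labels do not name the mutated gene, and they do not say whether a genotype's samples 1 to 6 came from separate plants or cultures. Any p-value given for another gene thus sets the genotype difference against sample-to-sample spread, which could be technical. The main fit, with genotype as its only term, took the 12 samples as independent. The labels name no pairs of samples, and samples with consecutive numbers were paired only here. With these consecutive samples as a random block, the correlation within a pair, estimated across features, was 0.476. The SEs and adjusted p-values of the main fit do not allow for this likeness.

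Proline is an amino acid that plants accumulate as a compatible solute under drought and salt, and that they later oxidise in mitochondria to recover its carbon and nitrogen. Mannitol, for which MAMI is named, is a sugar alcohol widely used to impose osmotic stress on seedlings. MAMI encodes a largely hydrophilic protein associated with the plasma membrane, with limited similarity to the VAP proteins that act at contacts between membranes.

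The brightest feature of each sample stands at 100, and every intensity is relative to it. The sample medians ran from 0.139 to 0.227 in WT and from 0.102 to 0.121 in kn09. Within WT they were at most 0.144 in samples 5 and 6 and at least 0.211 in samples 1 to 4. A WT sample had 153 to 235 features listed at 0, against 398 to 522 in a kn09 sample. For this reason deposited intensities, log2 intensities after quantile normalization, and the rank percentile of a feature within its own sample (100 for the brightest) stand side by side below. Gene names rest on the platform annotation alone. None of the 9 listed root marker loci and 1 of the 10 listed green tissue loci lay on a single-gene feature, so the labelled tissue could not be checked by root markers. The green tissue locus, LHB1B2, a light-harvesting protein, ranked between percentiles 99.4 and 99.8 in every sample, and its log2 difference (kn09 minus WT) was -0.24 ± 0.22 (SE, limma adjusted p = 0.498), or 0.46 with median scaling. Its part in the results below was not tested. None of 7 listed loci of proline metabolism lay on a single-gene feature.

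MAMI was a moderately bright feature that ranked higher in kn09 than in WT. Its deposited intensity in WT samples 1 to 6 was 0.602, 0.543, 0.660, 0.586, 0.367 and 0.310. In kn09 samples 1 to 6 it was 0.512, 0.535, 0.663, 0.544, 0.780 and 0.829. The genotypes overlapped on this scale, because WT samples 1 to 4 covered much the same range as kn09 samples 1 to 4, while WT samples 5 and 6 were the lowest and kn09 samples 5 and 6 the highest of the 12. WT samples 5 and 6 were also dimmer over all features, with medians of at most 0.144 against at least 0.211 in WT samples 1 to 4. By rank percentile, too, MAMI was lowest in WT samples 5 and 6, at 72.1 and 68.9. The means were 0.511 ± 0.140 in WT and 0.644 ± 0.136 in kn09 (± SD, n = 6 per genotype), a ratio of 1.26. In bulk roots, a change in the number of cells that express a gene and a change in RNA per cell cannot be told apart.

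After quantile normalization the 2 sets of MAMI values separated. The normalized log2 intensity ran from -1.71 to -0.92 in WT and from -0.79 to -0.05 in kn09, with a log2 difference (kn09 minus WT) of 0.82 ± 0.20 (SE), or 1.77-fold. Within its own sample MAMI stood at percentile 68.9 to 79.6 in WT and 81.0 to 87.3 in kn09. Its rank was thus higher in each kn09 sample than in any WT sample, although the intensities as deposited overlapped. On the deposited scale the log2 difference was 0.36 ± 0.24 (SE), against a median of -0.85 over all features on that scale. Relative to that median the difference was 1.21, and relative to the all-feature median of -0.06 after quantile normalization it was 0.88.

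The MAMI values of consecutive samples were alike, and the difference was smaller without the last samples of each genotype. The largest gap within a consecutive pair was 0.0736 in WT and 0.120 in kn09, while the means of consecutive pairs ran from 0.339 to 0.623 in WT and from 0.523 to 0.805 in kn09. Without samples 5 and 6 of both genotypes, a setting chosen after seeing the data, the normalized log2 difference was 0.45 ± 0.18 (SE), and MAMI was no longer called at an adjusted p under 0.05. The call was also lost without WT sample 5, without kn09 sample 5 and without kn09 sample 6, where the log2 differences were 0.76, 0.76 and 0.74, but not without WT sample 6, where the difference was 0.72. Lost calls did not track the size of the difference: the call was lost as well without WT samples 3 and 4 and without kn09 samples 1 and 2, where the differences were 0.93 and 0.88, above the 0.82 of all samples. Without WT samples 5 and 6 it was 0.63, and without kn09 samples 5 and 6 it was 0.65, with the call lost in both.

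AT1G65500 was dim in WT and of middle rank in kn09. Its deposited intensity in WT samples 1 to 6 was 0.0860, 0.0631, 0.104, 0.180, 0.0660 and 0.154. In kn09 samples 1 to 6 it was 0.247, 0.205, 0.185, 0.251, 0.191 and 0.170. All but 1 of the kn09 samples lay above the highest WT sample, and the exception, kn09 sample 6 at 0.170, lay just under WT sample 4 at 0.180. The means were 0.109 ± 0.0482 in WT and 0.208 ± 0.0335 in kn09 (± SD, n = 6 per genotype), a ratio of 1.91. No sample of either genotype was listed at 0.

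The rank of AT1G65500 moved further than that of MAMI. It stood at percentile 15.5 to 52.0 in WT and 61.5 to 71.0 in kn09, a difference of 34.4 percentile points between the means, against 8.82 points for MAMI. After quantile normalization the log2 intensity ran from -5.17 to -2.62 in WT and from -2.14 to -1.59 in kn09, and the log2 difference was 1.94 ± 0.37 (SE), or 3.84-fold. On the deposited scale it was 1.04 ± 0.28 (SE). Relative to the median of all features on that scale it was 1.89.

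WT samples varied more than kn09 samples for AT1G65500. The coefficient of variation of the deposited intensity was 44.3% in WT and 16.1% in kn09, and the SD of the normalized log2 intensity was 0.91 and 0.22. Consecutive WT samples did not keep together here: the largest gap within a pair was 0.0878, wider than the range of pair means from 0.0746 to 0.142. In that the feature differed from MAMI, whose WT samples were close within each pair.

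AT1G05340 went the other way. Its deposited intensity in WT samples 1 to 6 was 0.0839, 0.123, 0.151, 0.147, 0.0745 and 0.0597. In kn09 it was 0.0219 in sample 1 and 0.0131 in sample 5, and the feature was listed at 0 in samples 2, 3, 4 and 6. The genotypes did not overlap as deposited, and the lowest WT sample, at 0.0597, stood above the highest kn09 sample. The means were 0.106 ± 0.0390 in WT and 0.00583 ± 0.00945 in kn09 (± SD, n = 6 per genotype). An exact 0 in such a table says that the feature is listed at 0, not that the transcript was absent.

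Zeros were more frequent in kn09 over the whole array. Of 2922 features above 0 in every WT sample, 69, or 2.36%, were at 0 in 4 or more kn09 samples, and AT1G05340 was one of them. Within its sample AT1G05340 stood at percentile 21.7 to 37.2 in WT and 5.80 to 22.7 in kn09, where tied zeros share a mean rank. By rank and by normalized intensity the genotypes overlapped at 1 point: kn09 sample 1, at a normalized log2 intensity of -4.28, lay above WT sample 1, at -4.37, although its deposited intensity was the lower of the pair.

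The size of the AT1G05340 difference depended on how zeros and low values were treated. With zeros at a floor of 0.0062, the 1st percentile of positive normalized intensities, the log2 difference was -2.63 ± 0.58 (SE). On the deposited scale, with the floor at the 1st percentile of positive deposited intensities, it was -4.02 ± 0.50 (SE). Relative to the median of all features on that scale it was -3.17. After quantile normalization the log2 difference was -1.35 ± 0.25 (SE) with the floor at the 5th percentile and -0.63 ± 0.15 (SE) with a pseudocount of 0.1. With zeros as missing, kn09 kept only samples 1 and 5, the log2 difference was -0.76 ± 0.36 (SE), and the call was lost. The direction was the same in each of these settings, while no fold size can be read from them.

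**Figure D1:**
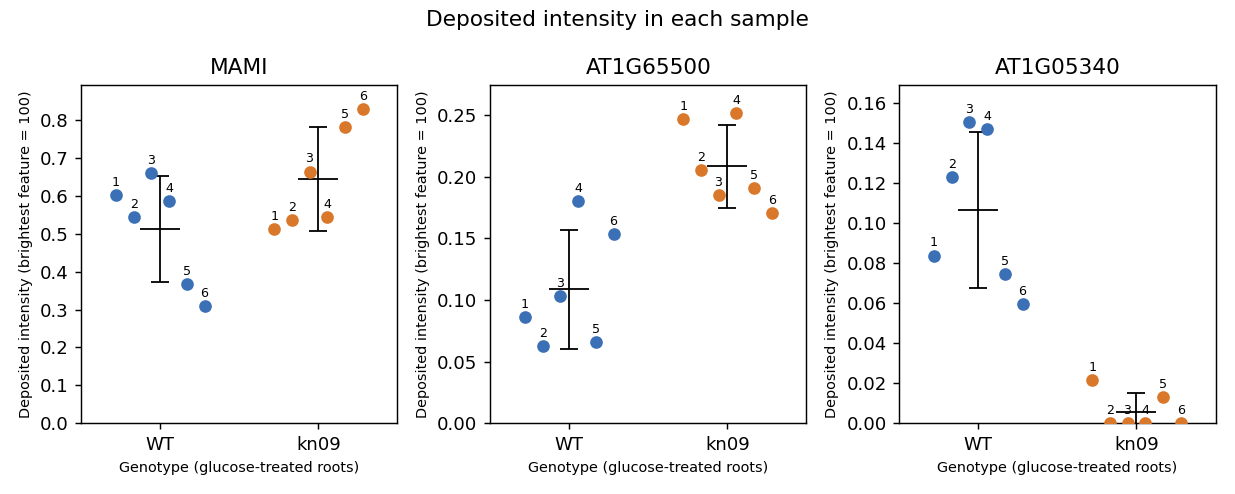
Deposited intensity (vertical axis, brightest feature of the sample = 100) of MAMI, AT1G65500 and AT1G05340 in each sample, with the sample number above each point and the mean ± SD of 6 samples as bars. The MAMI points overlap between genotypes, the AT1G65500 points touch at kn09 sample 6 and WT sample 4, and the AT1G05340 points separate, with 4 kn09 samples at 0.

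**Figure D2:**
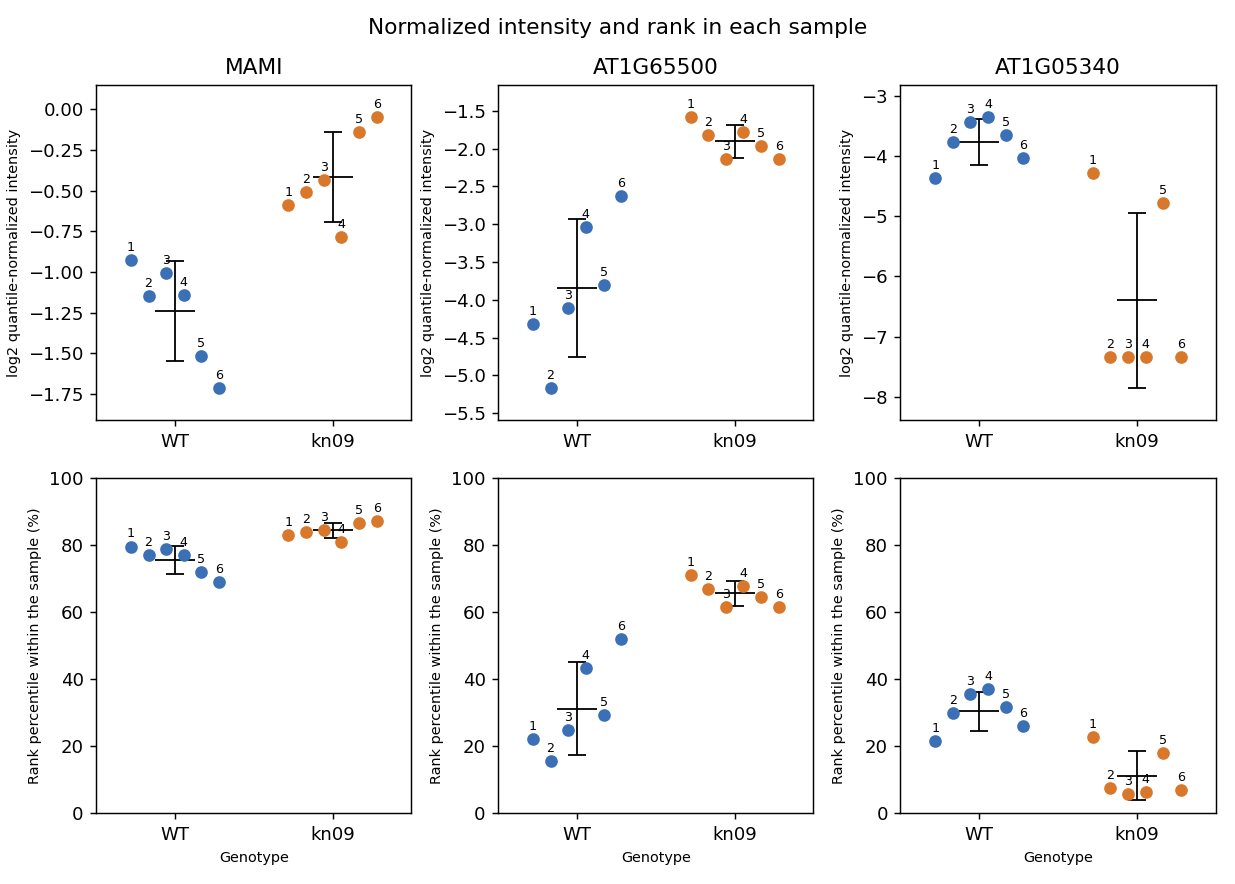
Log2 quantile-normalized intensity (upper row) and rank percentile among the features of the same sample (lower row, %) of the 3 genes in each sample, with sample numbers and the mean ± SD of 6 samples. MAMI and AT1G65500 are higher in every kn09 sample than in any WT sample on both scales, and kn09 sample 1 lies above WT sample 1 for AT1G05340.

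In the fit across all features (limma, Benjamini-Hochberg adjusted p under 0.05), MAMI and AT1G65500 were called higher in kn09, as were 6.48% of all features, and AT1G05340 was called lower, as were 6.31%. Since this contrast had chosen the genes, the 3 calls add nothing to the choice. On the deposited scale, 2.88% of features were called higher and 33.7% lower, a split of 99 against 1158 features in place of 223 against 217; AT1G65500 and AT1G05340 were called there and MAMI was not. With each sample divided by the median of its positive intensities, 7.65% were called higher and 9.22% lower, and all 3 genes kept their calls. With consecutive samples as a random block 2.38% of features were called in either direction, and none of the 3 genes was.

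Features whose genotypes did not overlap were also common. As deposited, 1.37% of features had each kn09 sample above all WT samples and 15.4% had each below, the latter including AT1G05340. By rank percentile these shares were 5.61% and 3.37%, the former including MAMI and AT1G65500. In the plot of differences against WT level, AT1G65500 and AT1G05340 are dim and lie near the edges of the whole distribution. They stand at percentiles 98.1 and 1.13 of all log2 differences, AT1G05340 with 4 kn09 zeros set at the floor. Their place among dim features alone was not computed. MAMI lies inside it, at percentile 84.2.

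**Figure D3:**
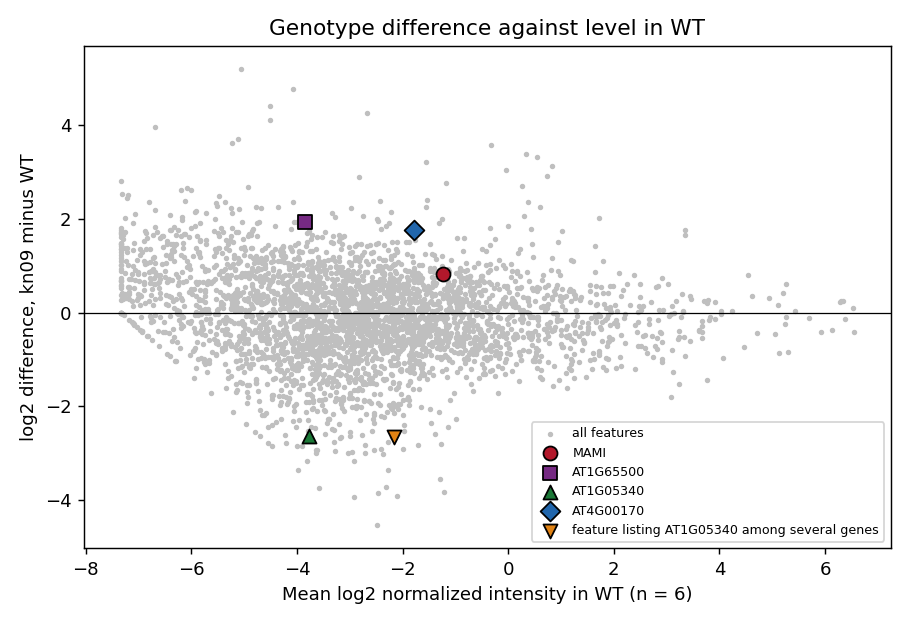
Log2 difference between genotypes (kn09 minus WT, vertical axis) against the mean log2 normalized intensity in WT (horizontal axis) for all 3439 features in grey, with the 3 genes and 2 related features marked. AT1G65500 at 1.94 and AT1G05340 at -2.63 are dim in WT and lie near the upper and lower edges of all differences, and MAMI at 0.82 lies among brighter features.

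Few related genes could be read from single-gene features. Of 9 further loci listed as relatives of MAMI, 1, AT4G00170, lay on a single-gene feature, and it was higher in kn09. Its deposited intensity was 0.411, 0.292, 0.316, 0.435, 0.349 and 0.359 in WT samples 1 to 6 and 0.803, 0.725, 0.934, 0.979, 0.899 and 0.815 in kn09 samples 1 to 6. The genotypes did not overlap on either scale, the lowest kn09 sample standing well above the highest WT sample. As deposited, 1.37% of all features had each kn09 sample above all WT samples, and by rank percentile 5.61% did. After normalization the log2 difference of AT4G00170 was 1.76 ± 0.18 (SE, limma adjusted p = 0.000113), with all 6 kn09 samples above each WT sample. This increase was already known when the list was made, so it is not independent support for MAMI. Over 29 alternatives its limma adjusted p ran from 5.07e-06 to 0.0799, and the call was lost in 1 of them, with means of consecutive samples.

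AT4G00170 and MAMI differed in how evenly kn09 samples behaved. The SD of the normalized log2 intensity over kn09 samples was 0.07 for AT4G00170 and 0.28 for MAMI, and over WT samples 0.34 and 0.31. A further feature lists 2 of the loci set down as relatives of MAMI and can be read as neither. It had a deposited 0.0866 ± 0.0245 in WT and 0.0408 ± 0.0322 in kn09 (± SD, n = 6 per genotype), with a log2 difference of 0.05 ± 0.48 (SE, limma adjusted p = 0.950) after normalization and -1.60 ± 0.63 (SE) as deposited, so that its direction turned with the scaling.

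None of the 13 further loci listed as relatives of AT1G05340 lay on a feature of its own, but 1 feature lists AT1G05340 together with 4 of them. It was looked up after the data had been seen and cannot be assigned to any of its 5 genes. In WT samples 1 to 6 this shared feature had a deposited intensity of 0.356, 0.376, 0.409, 0.389, 0.142 and 0.110. In kn09 samples 1 to 6 it had 0.0187, 0.163, 0, 0, 0.0663 and 0.0201. Most kn09 samples lay below all WT samples, the exception being kn09 sample 2, and samples 3 and 4, listed at 0, were at 0 for AT1G05340 as well. AT1G05340 was also at 0 in kn09 samples 2 and 6, where the shared feature had 0.163 and 0.0201.

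The shared feature fell short of the threshold, its log2 difference being -2.66 ± 0.84 (SE, limma adjusted p = 0.0564). Its kn09 mean was 0.0446 ± 0.0627 against 0.297 ± 0.134 in WT (± SD, n = 6 per genotype), and all 6 kn09 samples stayed under the median of WT after normalization. In 6 of 29 alternatives it was called lower, among them the deposited scale, where 33.7% of all features were called lower. Over all 29 its limma adjusted p ran from 0.00998 to 0.301. The log2 difference had the same direction in all 29.

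**Figure D4:**
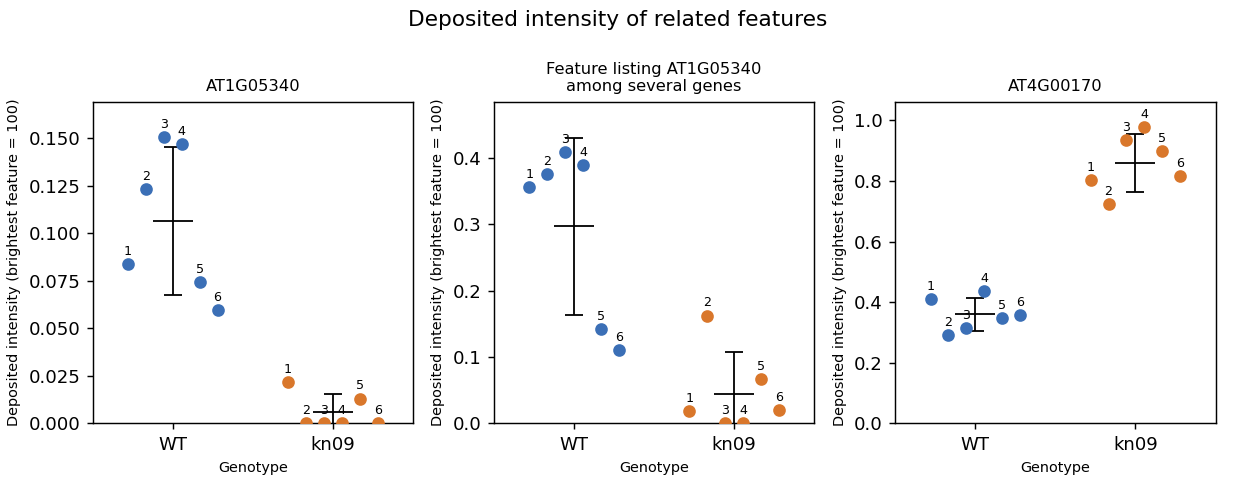
Deposited intensity (brightest feature of the sample = 100) of AT1G05340, of the feature that lists it among 5 genes, and of AT4G00170 in each sample, with sample numbers and the mean ± SD of 6 samples. The shared feature is at 0 in kn09 samples 3 and 4 and overlaps WT only through kn09 sample 2, and AT4G00170 is higher in every kn09 sample than in any WT sample.

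None of the 7 loci listed as neighbours of AT1G65500 in the genome lay on an annotated feature used here. Stress-related words in the annotation matched 3 other genes: SIS, a salt-induced serine-rich protein, DI21, named for induction by drought, and NTRC, the plastid NADPH-dependent thioredoxin reductase. None of the 3 was called, too few genes to set against the shares of all features called, and their median log2 difference was -0.91, against -0.06 over all features. SIS went from a WT mean of 0.145 ± 0.0499 to a kn09 mean of 0.0224 ± 0.0205 (± SD, n = 6 per genotype), and its log2 difference was -1.89 ± 0.71 (SE, limma adjusted p = 0.101). Its genotypes did not overlap as deposited, where 15.4% of all features had each kn09 sample below all WT samples. By rank and by normalized intensity they overlapped. SIS was listed at 0 in kn09 samples 2 and 4. It was called lower in 2 of 29 alternatives, as deposited and with median scaling, with limma adjusted p of 0.00587 and 0.0264. In those settings 33.7% and 9.22% of all features were called lower. DI21 had a log2 difference of -0.91 ± 0.42 (SE, limma adjusted p = 0.169), and in limma its adjusted p ran from 0.0143 as deposited to 0.503 over 29 alternatives. It was called lower in 3 of them, and without WT sample 1 the difference was -1.26 (limma adjusted p = 0.0295). NTRC had 0.13 ± 0.38 (SE, limma adjusted p = 0.835).

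Words for small secreted proteins matched 2 genes. RALFL32, of the rapid alkalinization factor family of secreted peptides, had a log2 difference of -0.13 ± 0.29 (SE, limma adjusted p = 0.791). As deposited it was called lower (limma adjusted p = 0.0325), as were 33.7% of all features. Relative to the median of all features on that scale its difference was 0.02. CBL, which matched only through the letters of cystathionine beta-lyase, an enzyme of methionine synthesis, had 0.19 ± 0.68 (SE, limma adjusted p = 0.871). Neither was called after normalization, and words for membrane proteins matched MAMI alone.

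The features next to the 3 genes in the deposited order moved in both directions. Of the 2 features before and the 2 after MAMI, the log2 differences were -0.69, 0.89, -0.57 and -1.20, and the last was called. Around AT1G65500 they were -0.84, 0.35, 0.27 and -2.28, the first and last being called lower. Around AT1G05340 they were 1.13, -0.96, 1.61 and -0.19, with the feature just before called lower and that just after called higher. Each gene thus had a neighbour on either side of 0.

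Over the 12 samples, the named genes whose normalized log2 intensity was most like that of MAMI, among 687 compared, were ATSIK, AT3G57120 and AT1G73470, with Pearson r of 0.870, 0.856 and 0.847. For AT1G65500 they were AT4G00170, AT1G01730 and AT2G21960, at 0.912, 0.867 and 0.838. For AT1G05340 they were AT2G48130, AT5G06410 and AT3G50180, at 0.810, 0.802 and 0.785. These values share libraries and normalization and hold the genotype difference, so they are descriptions only. AT5G06410 and AT1G05340 were both listed at 0 in kn09 samples 2, 4 and 6, so their r rests in part on shared floor values. Once the genotype means were removed the closest genes were others. They were AT4G21170 for MAMI with r = 0.899, AT5G53620 for AT1G65500 with r = 0.907, and AT1G18440 for AT1G05340 with r = 0.968. The last gene was listed at 0 in all WT samples and in 4 kn09 samples, so that its likeness rests on few values above 0.

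AT4G21170 was chosen among 687 genes for the highest r with MAMI within genotypes, so its likeness there is a description only. Between genotypes the AT4G21170 feature went against MAMI. Its deposited mean was 0.590 ± 0.196 in WT and 0.216 ± 0.0528 in kn09 (± SD, n = 6 per genotype), and its log2 difference was -0.84. In WT its pair means were 0.592, 0.808 and 0.371 for samples 1 and 2, 3 and 4, and 5 and 6. Those of MAMI were 0.572, 0.623 and 0.339, in the same order. In kn09 they were 0.185, 0.180 and 0.283 for AT4G21170 and 0.523, 0.604 and 0.805 for MAMI. The last pair was thus the lowest in WT and the highest in kn09 for both features.

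**Figure D5:**
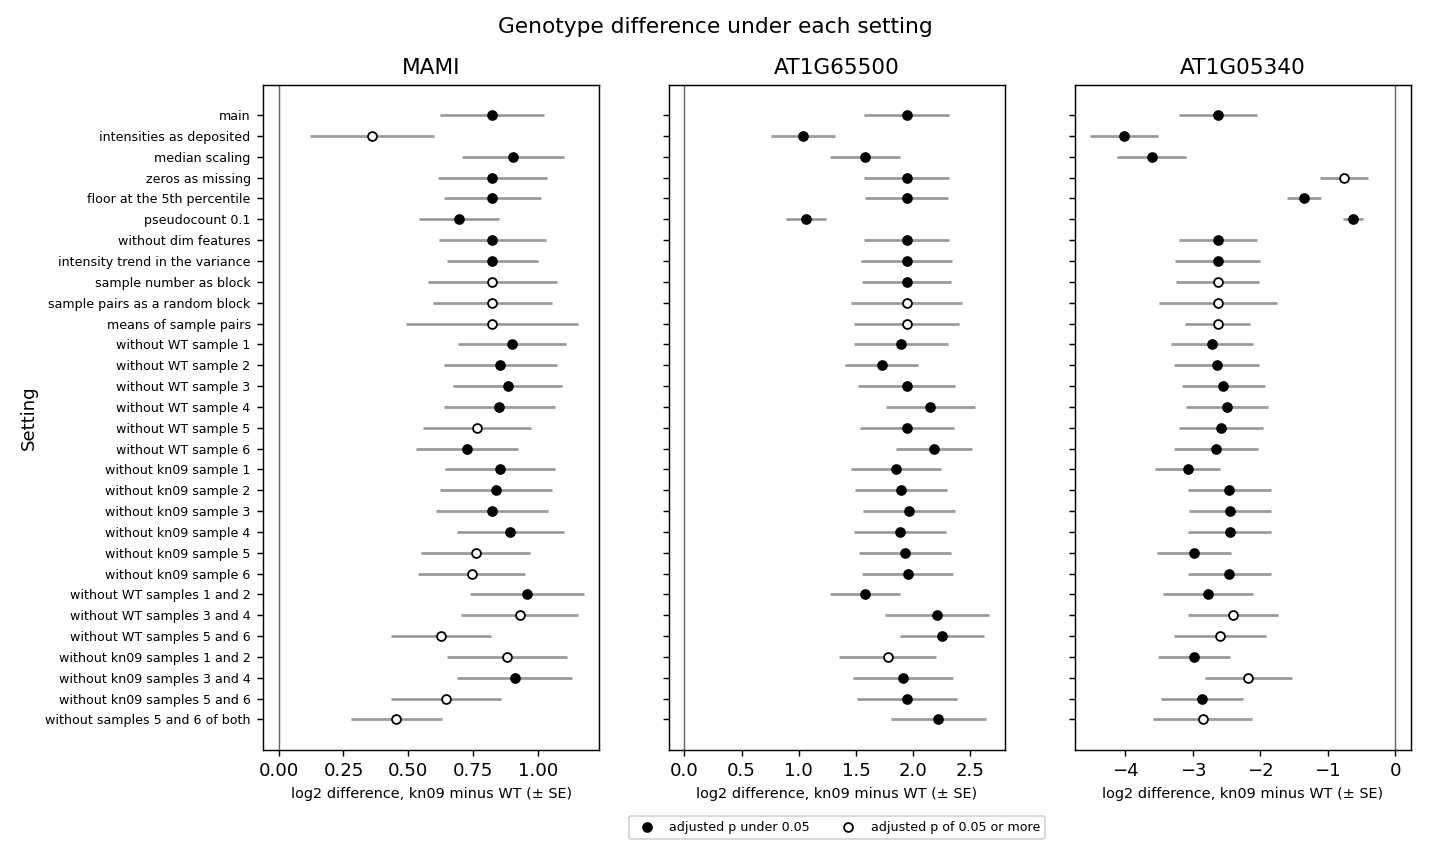
Log2 difference between genotypes (kn09 minus WT) with its SE for the 3 genes under each setting, with filled points where the adjusted p was under 0.05 and open points elsewhere. MAMI stays above 0 and loses the call in 12 settings, AT1G65500 stays above 0 and loses it in 3, and AT1G05340 stays below 0 and loses it in 8.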

How the data were processed

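The authors deposited a table of linear intensity values, a row per array feature and a column per sample. How the authors scanned, corrected or scaled the arrays, and the genome build, are not given in the sources used here. All 12 columns were used and 0 other columns of per-sample values were left aside. Precision is limited by the number of arrays.

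Intensities were quantile normalized in limma 3.58.1 (R 4.3.3), deposited zeros and values under the 1st percentile of positive normalized intensities were set to that percentile, and log2 was taken. Genotype was the only term in lmFit and eBayes (2-sided), with Benjamini-Hochberg adjustment over 3439 features. The code was tested on simulated data. Annotation symbols were updated by Entrez identifier to TAIR10.1 names, which matched 690 of 692 features. Of the other features, 870 list several genes and 1877 are unnamed here.

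The members, gene lists, tests and alternatives were chosen with earlier results of these data known. Relatives of MAMI and AT1G05340 and the marker loci were listed from general knowledge. The text names the 3 members, listed loci on single-gene features, the genes of each word list and the genes most like each member. For the last, the 3 with the highest r and the 1 with the highest r of deviations from genotype means were taken. AT1G18440 and AT4G21170 came by this rule, and the 2 shared features were added after seeing the data. Alternatives covered scaling, zeros, floor, pseudocount, a filter that left out features at 0 in over 6 samples, variance trend, blocks and left-out samples, with normalization repeated for each left-out set. Sequences were not used here.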

Additional observations from a re-analysis of the deposited data

Results flagged for a closer look

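SIS in WT sample 4 had a deposited intensity of 0.240, far from the other WT samples, which ran from 0.0949 to 0.148. The gap was on the deposited scale. After quantile normalization SIS had a log2 intensity of -2.59 in WT sample 4, next to -2.65 in WT sample 5. This SIS value was the only such case among 48 sets of 6 values checked over the 3 genes, the related features and the listed genes. Chance gives about 1 case in every 20 sets, so a single case among 48 does not stand out. The sets come from the same samples and are not independent.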

How the results depend on the processing

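The direction of all 3 genes was the same in each of the 29 alternatives, while calls were not. MAMI was called in 17 of 29, AT1G65500 in 26 and AT1G05340 in 21. On the deposited scale 1257 features were called and the log2 differences were 0.36 for MAMI, 1.04 for AT1G65500 and -4.02 for AT1G05340. With a pseudocount of 0.1 they were 1.06 for AT1G65500 and -0.63 for AT1G05340, which had -0.76 with zeros as missing and -1.35 with the floor at the 5th percentile. With the replicate block 211 features and 1 of the 3 genes, AT1G65500, were called. Same-numbered samples of the genotypes share only a number in the labels. Their deviations correlated at 0.0377 to 0.122, against -0.0702 to 0.0648 between samples of other numbers, and 10 of 12 samples correlated best with their own number. The main fit held no term for this number, and what lies behind the likeness was not tested. With sample pairs as a random block 82 features and 0 of the 3 genes were called, and with means of pairs 16 and 0, by limma in both cases, where the unadjusted count in the fit of all samples was 1040. Leaving out 1 sample gave 192 to 507 called features, 2 to 3 called genes, and log2 differences of 0.72 to 0.90 for MAMI, 1.72 to 2.18 for AT1G65500 and -3.08 to -2.45 for AT1G05340. Without WT samples 1 and 2, 3 and 4, or 5 and 6, the features called were 827, 142 and 201, and without the same kn09 pairs 130, 206 and 186. Only 1 of the 3 genes stayed called without WT samples 3 and 4, without WT samples 5 and 6 or without kn09 samples 1 and 2. Without samples 5 and 6 of both genotypes 85 features and 1 gene were called, and the MAMI difference was 0.45. Where the call counts moved, the cause was not tested.

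Uncalled genes changed direction in some settings. As deposited, CBL had -0.67, NTRC -0.64 and the feature of 2 relatives of MAMI -1.60, and with median scaling they had -0.12, -0.10 and -1.05, and LHB1B2 had 0.46. Leaving out 1 sample gave -0.24 to 0.54 for CBL, -0.18 to 0.31 for NTRC, -0.32 to 0.01 for RALFL32 and -0.20 to 0.36 for that feature. Reversals without 1 sample were -0.04 and -0.24 for CBL, -0.18 for NTRC, 0.015 for RALFL32 and -0.03, -0.20, -0.13 and -0.17 for the feature. Without WT samples 1 and 2, CBL had -0.19 and NTRC -0.36. Without WT samples 3 and 4, CBL had -0.21, the feature -0.39 and LHB1B2 0.0034. Without WT samples 5 and 6, RALFL32 had 0.16, and without samples 5 and 6 of both genotypes 0.25. Without kn09 samples 1 and 2, or 5 and 6, the feature had -0.17 and -0.049. Dim features are limited by zeros and by the unknown scale of the deposited values.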
